A study of Mus musculus with 40 samples.

Results

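Described here are the CD11b+ cells of mouse gliomas that were exposed for 21 days to 7aaRAE, the control peptide of an integrin-blocking peptide, against the same cells of gliomas that received vehicle. Of the 40 samples of the series, 6 belong to this comparison and were taken by their labels, 3 with 7aaRAE and 3 with vehicle. GL261 tdTomato+luc+ cells, a murine glioma line that carries a fluorescent and a luciferase reporter, were implanted into the right striatum of male C57BL/6 mice aged 10 to 12 weeks. An osmotic pump then delivered H2O, the vehicle, or 7aaRAE at 2 mg/ml in H2O into the tumor. At 21 days post-implantation (DPI) the CD11b+ cells of the tumor-bearing hemisphere were sorted by FACS, and their polyadenylated RNA was sequenced. Each sample was a pool of 2 animals, so that a value is an average over both, and the 3 samples of a group were separate pools. The labels list GL261 as a human line, whereas the study's methods describe it as murine. The 3 samples of 7aaRGD, the active peptide at the same dose and day, and the 3 samples of naïve mice, which had no tumor, are given beside these groups where they help to read a value.

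Integrins are heterodimeric receptors by which cells hold on to the extracellular matrix, and several of them, among them those built on the αv and α5 subunits, recognise the short motif Arg-Gly-Asp (RGD) in ligands such as osteopontin and fibronectin. Peptides with this motif compete with such ligands. In 7aaRAE the motif is replaced by Arg-Ala-Glu (RAE), which these integrins are not known to bind, while the peptide is otherwise built and capped like 7aaRGD. CD11b, the αM integrin subunit encoded by Itgam, is carried by the myeloid cells of the brain: resident microglia, which keep a program of homeostatic genes, and monocytes and macrophages that enter a tumor from the blood and can take up either an inflammatory, interferon-responsive state or an alternatively activated state marked by Arg1, Mrc1 and Chil3. The fold changes below therefore describe what these cells expressed during delivery of a peptide without the integrin-binding motif.

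Values were RPKM (reads scaled to the length of the transcript and to the size of the library), computed by the authors, and were compared as log2(RPKM + 1) with limma, a linear model with moderated variances, over 9440 protein-coding genes whose average over the 9 tumor-bearing samples reached 1 RPKM. Differences are given in log2 units as 7aaRAE minus vehicle, and are also called fold changes. On this scale the fold change of a gene with a low level is understated. Between 9327 and 9569 genes reached 1 RPKM in a tumor-bearing sample, and the 10 highest genes held 13.4% to 14.6% of the summed RPKM. Read numbers were not given in the sources used here, and the depth behind a value is unknown. The residuals of the 3 tumor-bearing groups spanned 5 of the 6 possible dimensions. The methods do not describe a step that would leave out one dimension, and the spread between replicates, on which the tests rest, may be understated. Vehicle sample 3 lay farthest from its group, with a root mean square difference of 0.224 log2 units to the mean of the other vehicle samples, against 0.122 to 0.205 for the other 8 tumor-bearing samples. Several results that turn on it are given with and without it. Itgam was at 63.8, 51.2 and 63.4 RPKM with vehicle and 61.2, 66.5 and 64.6 RPKM with 7aaRAE and was expressed in every sample, as the sort requires.

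No gene passed an adjusted p-value of 0.05 between 7aaRAE and vehicle, 0 of 9440 or 0% of the genes tested (limma, Benjamini-Hochberg adjustment), and the smallest adjusted p was 0.299. At an unadjusted p-value under 0.05 there were 600 genes, 6.36% of those tested, of which 313 (3.32%) were higher and 287 (3.04%) lower with 7aaRAE. For 1191 genes (12.6%) the 3 samples of one group lay entirely above those of the other, 578 (6.12%) with 7aaRAE above and 613 (6.49%) with 7aaRAE below. A noise test that sets group differences against replicate differences, after the principle of NOISeq, called 195 genes, 89 higher and 106 lower. Without vehicle sample 3 the count at an unadjusted p-value under 0.05 was 1080 of 9440, and the smallest adjusted p was 0.0859 (limma). With any other vehicle or 7aaRAE sample left out the count was 407 to 658, and the smallest adjusted p was 0.493 to 0.872. Across all genes the median log2 fold change was 0.00481, and 52% of genes had a value above 0. These shares are the background against which the gene groups below are read. An exact permutation test of a single gene with 3 samples against 3 cannot give a p-value under 0.1, so no gene was tested in that way.

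**Figure D1:**
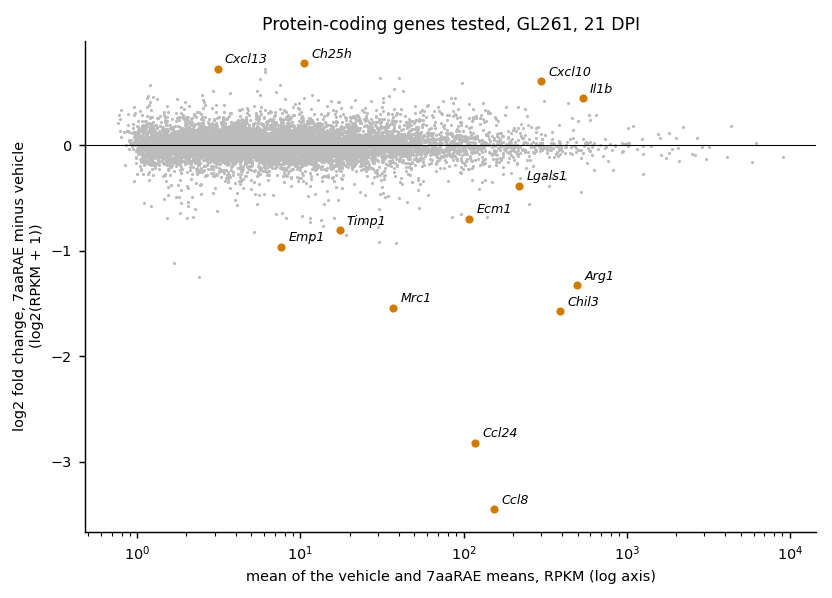
Each point is one of the 9440 genes, with its mean level in the vehicle and 7aaRAE samples (RPKM, log axis) against its log2 fold change of 7aaRAE over vehicle, and genes described in the text are colored. Most genes lie close to 0 at every level, and the labelled genes on the lower side, among them Ccl8 at -3.45, Ccl24 at -2.82 and Chil3 at -1.57, reach farther from 0 than the highest, Ch25h at 0.78.

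Genes are named below where their groups did not overlap, their unadjusted p-value was under 0.05 and their mean was at least 5 RPKM. This held for 286 genes, 146 higher and 140 lower, and the 12 with the largest fold change on each side were taken. All 24 had an adjusted p of 0.718 (limma), and the noise test called 22 of them. The naming rule had picked large differences in the same samples, so this count is no separate evidence. They are descriptions of these samples, ordered by size, and none of them passed the test across all genes.

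The 12 genes that stood highest with 7aaRAE included cytokines, a chemokine and receptors of myeloid cells. Il1b, the cytokine interleukin-1β, is on chromosome 2 from 129364570 to 129371139 of mm10. It was at 446, 439 and 473 RPKM in the vehicle samples and at 544, 716 and 608 RPKM in the 7aaRAE samples. The lowest 7aaRAE sample was above the highest vehicle sample, the means were 453 ± 17.8 and 623 ± 87.1 RPKM (SD, n = 3), and the log2 fold change was 0.45 with a standard error of 0.15. Il1a, which encodes the other agonist of the same receptor, was at 24.4, 25.98 and 20.02 RPKM with vehicle and 28.4, 44.9 and 39.6 RPKM with 7aaRAE, a difference of 0.64 log2 units (standard error 0.19). The spread within the 7aaRAE group, from its first to its second sample, was wider than the gap between the groups for both cytokines.

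Cxcl10, a chemokine that recruits T cells and natural killer cells and is induced by interferons, is on chromosome 5 from 92346638 to 92348889. Its level was 207, 212 and 295 RPKM with vehicle and 371, 310.5 and 401 RPKM with 7aaRAE, with means of 238 ± 49.5 and 361 ± 46.3 RPKM (SD, n = 3) and a difference of 0.61 log2 units (standard error 0.23). Vehicle sample 3 came close to the lowest 7aaRAE sample, and without it the fold change was 0.775. Ch25h, the enzyme that makes 25-hydroxycholesterol and an interferon target, had the largest positive fold change of the named genes, at 7.81, 3.97 and 11.8 RPKM with vehicle and 12.1, 13.7 and 13.8 RPKM with 7aaRAE, or 0.78 (standard error 0.30). Here the vehicle samples were far apart and vehicle sample 3 lay just under the 7aaRAE range, so that the fold change was 1.10 without it and 0.42 without vehicle sample 2.

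Among surface molecules, Cd69, an early activation antigen of leukocytes, was at 4.56, 5.46 and 7.13 RPKM with vehicle and 8.34, 7.41 and 9.72 RPKM with 7aaRAE, a difference of 0.51 log2 units. Clec4e, the receptor Mincle that senses glycolipids and dying cells, was at 12.98, 13.5 and 17.5 and 19.5, 18.8 and 20.5 RPKM, a difference of 0.41 log2 units (standard error 0.12). Pilra, an inhibitory receptor of myeloid cells, was at 43.7, 37.6 and 49.6 and 60.9, 58.3 and 51.3 RPKM, a difference of 0.38 log2 units. For each of these receptors the 7aaRAE samples lay no farther apart, as a ratio, than the vehicle samples. The other named genes on this side were Slc25a37, the mitochondrial iron importer mitoferrin-1, Trim30c, Slfn9, Mcemp1 and Chordc1, a cochaperone of Hsp90, with log2 fold changes from 0.37 to 0.48.

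The 12 genes that stood lowest with 7aaRAE included secreted proteins, a chemokine and receptors. Timp1, an inhibitor of matrix metalloproteinases, is on chromosome X from 20870166 to 20874735. It was at 24.1, 22.2 and 20.5 RPKM with vehicle and at 9.28, 13.6 and 14.7 RPKM with 7aaRAE, a difference of -0.81 log2 units (standard error 0.18). All 3 vehicle samples were close to each other and well above every 7aaRAE sample. Ecm1, extracellular matrix protein 1, was at 171, 103 and 129.8 RPKM with vehicle and 86.2, 82.6 and 75.1 RPKM with 7aaRAE, a difference of -0.69 log2 units (standard error 0.19). Emp1, an epithelial membrane protein of the tetraspan type, was at 16.7, 6.82 and 8.33 and 3.82, 4.91 and 5.17 RPKM, a difference of -0.96 log2 units (standard error 0.26). Vehicle sample 1 was the highest for both Ecm1 and Emp1, and without it the fold changes were -0.51 and -0.61.

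Ccl6, a chemokine made by macrophages, was at 172, 101 and 86.6 RPKM with vehicle and 79.2, 69.9 and 69.7 RPKM with 7aaRAE, and its log2 fold change of -0.65 became -0.36 without vehicle sample 1. Tnfsf14, the ligand LIGHT of the TNF superfamily, was at 8.305, 9.11 and 6.74 and 5.63, 5.83 and 5.003 RPKM, a difference of -0.47 log2 units (standard error 0.11). Ltb4r1, the receptor for leukotriene B4, was at 27.96, 25.9 and 33.05 and 21.7, 23.1 and 17.2 RPKM, a difference of -0.47 log2 units. For these receptor and ligand genes the vehicle samples lay closer together than those of Ccl6. Cirbp, a cold-inducible RNA-binding protein, was at 7.55, 5.904 and 6.38 RPKM with vehicle and 3.67, 5.07 and 3.85 RPKM with 7aaRAE. The other genes of this set were Tmem37, Ms4a8a, Ap1b1, a subunit of a clathrin adaptor, and Cpne2, with log2 fold changes from -0.73 to -0.46.

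Apart from this rule, the 3 genes with the smallest p-values across the table were chosen after their values were seen. Lgals1, which encodes the lectin galectin-1, was at 263, 242 and 243 RPKM with vehicle and at 194, 186 and 194 RPKM with 7aaRAE, a difference of -0.38 log2 units (standard error 0.06, limma adjusted p = 0.378). The samples within each group were tight and the groups lay far apart, and 7aaRGD was in between at 225, 228 and 238 RPKM. Lgals3, the gene of the related lectin galectin-3, was at 469, 489.6 and 445 RPKM with vehicle and 363, 371 and 388 RPKM with 7aaRAE, a difference of -0.32 log2 units (adjusted p = 0.718). The others were low in level, Frat1, a regulator of Wnt signaling, with a difference of -0.47 log2 units (adjusted p = 0.299), and the kinase gene Dyrk4, with 0.44 (adjusted p = 0.378).

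**Figure D2:**
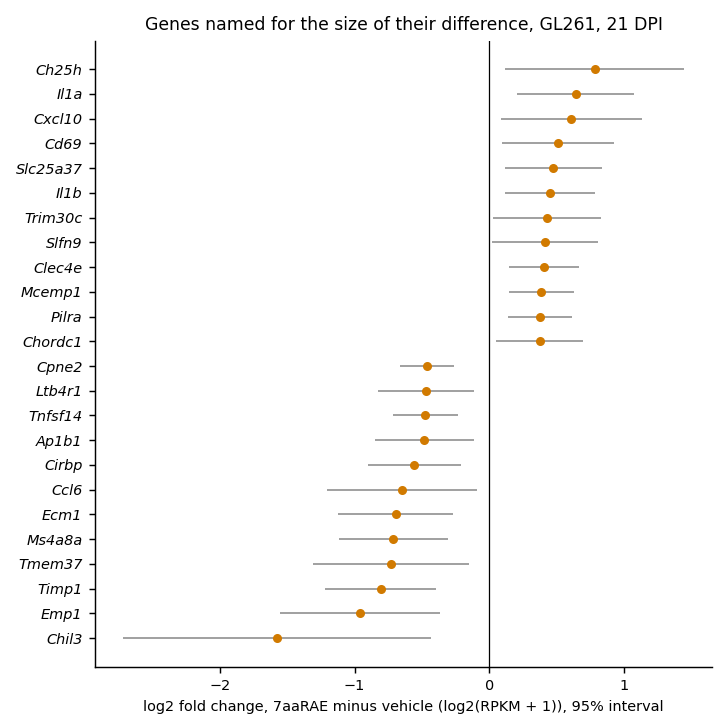
Log2 fold changes of 7aaRAE over vehicle on log2(RPKM + 1) for the 12 highest and 12 lowest genes of the naming rule, with bars for the 95% confidence interval of each gene alone. The genes run from Ch25h at 0.78 to Chil3 at -1.57, and the intervals are widest for Chil3.

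Markers of alternative activation were lower on balance and differed most among the vehicle samples. Of 20 genes on this list 17 were tested, 13 of them below 0 and 4 above, with a median log2 fold change of -0.27 against 0.00481 for all genes. Under the adjusted threshold 0 passed, and 5 had an unadjusted p-value under 0.05, all on the lower side where 3.04% of all genes stood. The groups of 2 did not overlap, Il4ra and Chil3, against 6.49% of all genes on this side. Of these Chil3 had been picked by the naming rule. Chil3, a chitinase-like secreted protein, is on chromosome 3 from 106147554 to 106167564 and had vehicle values of 709.6, 943 and 187 RPKM against 185, 165 and 153 RPKM with 7aaRAE. The means were 613 ± 387 and 168 ± 15.9 RPKM (SD, n = 3), and the log2 fold change was -1.57 (standard error 0.51). Vehicle sample 3 lay just above the highest 7aaRAE sample, and the other vehicle samples far higher.

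Arg1, the arginase that uses up arginine in such macrophages, is on chromosome 10 from 24915221 to 24927484 and was at 845, 1224 and 201 RPKM with vehicle and at 204, 243 and 265 RPKM with 7aaRAE. Its groups overlapped, as vehicle sample 3 was below all of the 7aaRAE samples, and the log2 fold change was -1.32 (standard error 0.56). Mrc1, the mannose receptor CD206, was at 99.5, 65.9 and 12.5 RPKM with vehicle and 16.7, 9.63 and 18.8 RPKM with 7aaRAE, a difference of -1.54 log2 units (standard error 0.67). For Mrc1, vehicle sample 3 was inside the 7aaRAE range. Without this sample the fold changes were -2.28 for Chil3, -2.10 for Arg1 and -2.40 for Mrc1, and with vehicle sample 2 left out they were -1.12, -0.80 and -1.25.

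Vehicle sample 3 was also the lowest of its group for Ccl8 and Ccl24, chemokines of alternatively activated macrophages. Ccl8 was at 598, 236 and 28.04 RPKM with vehicle and 8.91, 5.08 and 51.01 RPKM with 7aaRAE, the lowest fold change of all genes tested at -3.45 (standard error 1.08, adjusted p = 0.718), and its groups overlapped. Ccl24 was at 236, 427 and 6.28 and 13.4, 7.25 and 16.5 RPKM, a difference of -2.82 log2 units (standard error 1.32, adjusted p = 0.718). Vehicle sample 3 was lower than the third 7aaRAE sample for both. By contrast, Il4ra, the receptor chain for interleukin-4 that starts this program, was at 118, 119 and 126 RPKM with vehicle and 107, 109 and 97.1 RPKM with 7aaRAE. Its fold change of -0.21 (standard error 0.06) was small, its vehicle samples were close together, and the groups did not overlap. The list as a whole had a median of -0.454 without vehicle sample 3 and -0.197 without vehicle sample 1.

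**Figure D3:**
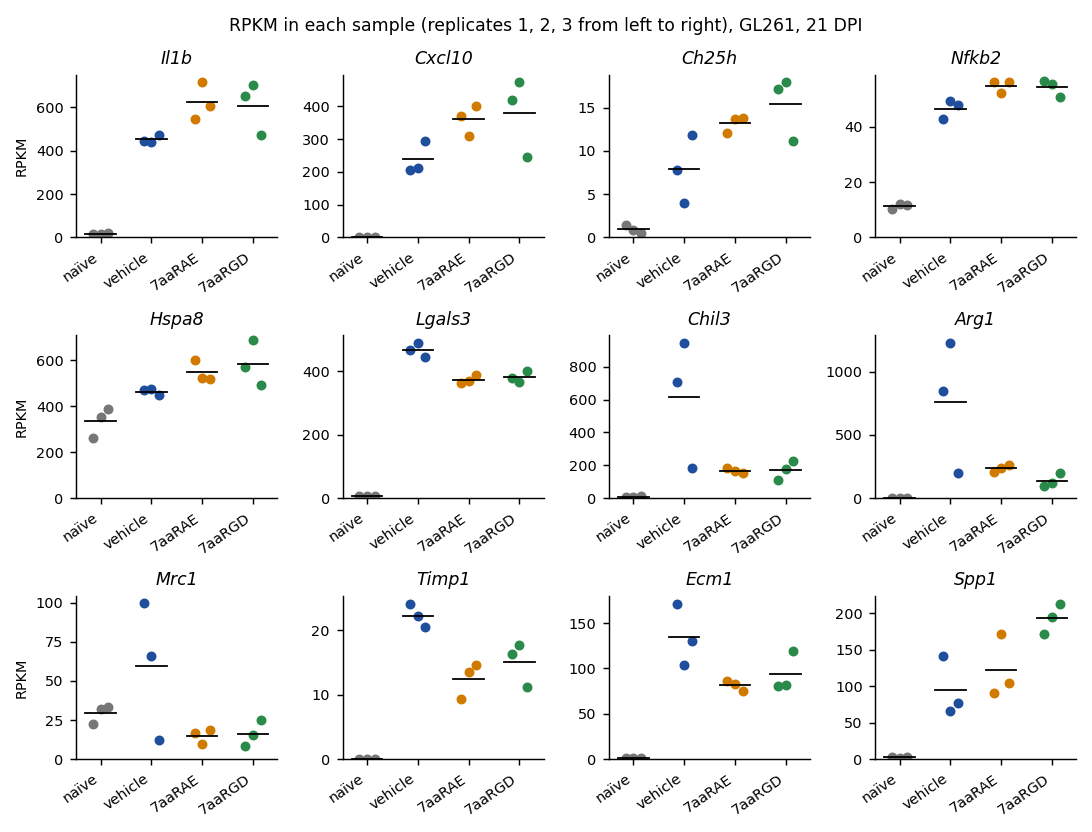
RPKM of 12 genes in each of the 3 samples of the naïve, vehicle, 7aaRAE and 7aaRGD groups, replicates 1 to 3 from left to right, with black lines for group means and a separate linear axis for each gene. Il1b, Cxcl10 and Nfkb2 lie above vehicle in all 3 samples of 7aaRAE, and for Chil3, Arg1 and Mrc1 vehicle sample 3 lies at or near the level of the peptide groups while the other vehicle samples are far higher.

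Genes of the type I interferon response, which encode antiviral effectors induced through the interferon-α/β receptor, had fold changes above 0 throughout the list without passing the test. Of 25 genes 24 were tested and all 24 had a fold change above 0, against 52% of all genes, with a median of 0.25. None passed the adjusted threshold, and 5 had an unadjusted p-value under 0.05 with 7aaRAE higher (background 3.32%). In 2, Ifit1 and Cxcl10, the groups did not overlap (background 6.12%), and Cxcl10 had been picked by the naming rule. The median ranged from 0.153 without 7aaRAE sample 3 to 0.371 without 7aaRAE sample 2. The summed level of the list was 1971, 2373 and 2575 RPKM with vehicle and 2835, 2321 and 3226 RPKM with 7aaRAE, so the groups overlapped, 7aaRAE sample 2 being below 2 of the vehicle samples.

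Promoter stretches of interferon targets on the list are printed to show the sequence that they share, an interferon-stimulated response element, searched on both strands as GAAA, any 2 bases and GAAA, in windows from 250 bases before to 50 after each start. They are RefSeq sequences of GRCm38.p6 read along the strand of the gene, each of 120 bases, with the element in capitals, which reads TTTC, 2 bases and TTTC where the match is on the opposite strand. Cxcl10 lies at chr5:92349020-92349139 on the minus strand, Rsad2 at chr12:26456508-26456627 on the minus strand, and Ifit1 at chr19:34640739-34640858 on the plus strand.
Cxcl10: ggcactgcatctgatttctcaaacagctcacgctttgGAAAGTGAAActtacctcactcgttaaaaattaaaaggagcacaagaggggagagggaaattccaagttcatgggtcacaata
Rsad2: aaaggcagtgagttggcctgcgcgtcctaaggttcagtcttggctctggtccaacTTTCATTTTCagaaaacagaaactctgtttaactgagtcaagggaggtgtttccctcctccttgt
Ifit1: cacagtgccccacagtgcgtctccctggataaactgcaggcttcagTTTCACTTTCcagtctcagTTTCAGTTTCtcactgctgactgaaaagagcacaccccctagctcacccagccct
Of the 24 genes tested, 20 had a window and 12 of these (60%) held the element, against 1079 of 27025 genes (3.99%) overall. A match describes the letters only. The list was drawn up as known interferon targets, so this share says nothing about the peptide.

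Ifit1, an antiviral RNA-binding protein whose stretch holds the element in 2 places, was at 52.5, 57.3 and 64.4 RPKM with vehicle and 67.5, 65.5 and 86.5 RPKM with 7aaRAE, a difference of 0.32 log2 units (standard error 0.16). The groups came within about 1 RPKM of each other. Rsad2 (viperin) was at 62.1, 65.2 and 82.6 and 103, 74.3 and 114 RPKM, a difference of 0.45 log2 units (standard error 0.17), and overlapped, since its second 7aaRAE sample was under vehicle sample 3. Cmpk2 and Ifit3b had fold changes of 0.45 and 0.43, and Irf7, the transcription factor that amplifies the response, only 0.03. In all of these genes 7aaRAE sample 2 was the lowest of its group, and vehicle sample 3 the highest of its own except for Irf7. In naïve mice Cxcl10 was at a mean of 1.11 RPKM, Rsad2 at 0.695 RPKM and Ifit1 at 0.9902 RPKM in CD11b+ cells, far below the vehicle samples.

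GTPases induced by interferon-γ were a separate list. Here 14 of 15 genes had a fold change above 0, with a median of 0.14, and none had an unadjusted p-value under 0.05 on that side. Gbp2b was the exception, at 3.21, 8.04 and 9.88 RPKM with vehicle and 3.75, 2.19 and 3.97 RPKM with 7aaRAE. In this list vehicle sample 1 was the low one, with a summed level of 857.5 RPKM against 1463 and 1476 in the other vehicle samples and 1188 to 1394 with 7aaRAE. Without it the median was -0.105.

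Chemokines split. Of 21 genes 18 were tested, 11 above 0 and 7 below, with a median of 0.09, which became 0.24 without vehicle sample 1. Cxcl13, a B cell chemoattractant, was at 2.57, 2.04 and 1.63 RPKM with vehicle, 3.92, 3.29 and 5.15 RPKM with 7aaRAE and 2.13, 2.16 and 2.46 RPKM with 7aaRGD. Its log2 fold change over vehicle was 0.73 (standard error 0.14, adjusted p = 0.718) without overlap of the groups, and its level was below the mean level of 5 RPKM that the naming rule required. Cxcl9, an interferon-γ target, was at 206, 226 and 378 and 392, 368 and 296 RPKM, with vehicle sample 3 inside the 7aaRAE range. Ccl2 and Ccl3, attractants of monocytes, had fold changes of 0.10 and 0.27. That of Ccl2 turned negative without vehicle sample 2 or without 7aaRAE sample 1, and that of Ccl3 was 0.06 without vehicle sample 3 and 0.59 without vehicle sample 1.

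The inflammatory cytokine list, which holds Il1b and Il1a, was mostly above 0. Of 16 genes 13 were tested, 11 above 0, with a median of 0.17. Of these 3 had an unadjusted p-value under 0.05 (background 3.32%). The groups of 4 did not overlap, Il1a, Il1b, Il15 and Nlrp3, all higher with 7aaRAE (background 6.12%). Il1a and Il1b are counted here again, as the naming rule had picked them for groups without overlap. Nlrp3, the sensor of the inflammasome that matures interleukin-1β, was at 21.4, 18.3 and 23.4 RPKM with vehicle and 27.1, 28.4 and 24.6 RPKM with 7aaRAE, a difference of 0.33 log2 units (standard error 0.09). Each 7aaRAE sample was above each vehicle sample, by a small margin over vehicle sample 3, without which the fold change was 0.411. Tnf was at 20.3, 20.4 and 20.7 and 19.1, 22.3 and 26.02 RPKM and Il6 at 4.34, 2.84 and 2.04 and 2.41, 3.38 and 4.003 RPKM, and both overlapped. Il18bp, the secreted inhibitor of interleukin-18, was on the lower side at 40.9, 69.1 and 66.9 and 46.2, 46.7 and 45.7 RPKM, a difference of -0.31 log2 units, with vehicle sample 1 below the 7aaRAE samples.

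NF-κB is the transcription factor family that drives Il1b and Nlrp3, and its subunits and inhibitors are among its own targets. All 12 genes of this list had a fold change above 0, with a median of 0.14 that stayed between 0.0967 and 0.175 with any single sample left out. Under an unadjusted p-value of 0.05 there were 2, Nfkb2 and Tnip1 (background 3.32%). The groups of 5 did not overlap, Nfkb1, Nfkb2, Relb, Nfkbie and Tnip1, where 6.12% of all genes did so in this direction. Nfkb2, the p100/p52 subunit, was at 42.6, 49.2 and 47.9 RPKM with vehicle and 56.1, 52.3 and 56.2 RPKM with 7aaRAE, a difference of 0.23 log2 units (standard error 0.07). Tnip1, an inhibitor of NF-κB signaling, was at 29.997, 35.4 and 38.4 and 42.3, 40.8 and 46.02 RPKM, a difference of 0.31 log2 units (standard error 0.12). For both, the lowest vehicle value was that of sample 1. Rela and Nfkbia overlapped, with fold changes of 0.08 and 0.08. An NF-κB site, searched on both strands as GGG, any 2 bases and TTTCC, was found in the windows of Nfkb2, Rel, Nfkbia and Tnfaip3, 4 of the 9 genes of the list with a window (44.4%), against 512 of 27025 genes (1.89%). The list holds known targets of the family, so this share says nothing about the peptide. The site of Nfkb2 ends next to its start and is shown in capitals in the stretch at chr19:46304617-46304736 on the plus strand.
Nfkb2: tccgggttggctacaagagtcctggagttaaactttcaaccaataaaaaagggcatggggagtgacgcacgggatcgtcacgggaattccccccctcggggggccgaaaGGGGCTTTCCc

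Heat shock chaperones, which fold and protect cytosolic and mitochondrial proteins and are induced by protein-damaging stress, were higher with 7aaRAE in every gene tested. Of 20 genes 18 were tested, all above 0 with a median of 0.25, and none passed the adjusted threshold. Only 2, Chordc1 and Cryab, had an unadjusted p-value under 0.05 (background 3.32%). The groups of 9 did not overlap, where 6.12% of all genes did so on this side. Chordc1 is in both counts and had been picked by the naming rule. The median stayed between 0.193 and 0.315 with any sample left out. With 7aaRGD, set against the same vehicle samples, the median of the list was 0.44.

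Hspa8, the constitutive Hsc70 and one of the highest chaperones, was at 469, 476 and 447 RPKM with vehicle and 599.7, 522 and 521 RPKM with 7aaRAE, a difference of 0.24 log2 units (standard error 0.12). Hsp90ab1, the constitutive Hsp90 of the cytosol, was at 438, 407 and 415 RPKM with vehicle and 523, 481 and 512 RPKM with 7aaRAE, a difference of 0.27 log2 units (standard error 0.12). In both genes the vehicle samples were tight and below every 7aaRAE sample. Hspa1a, the inducible Hsp70, was low at 4.601, 3.79 and 4.66 RPKM with vehicle and 6.803, 10.1 and 6.45 RPKM with 7aaRAE, a difference of 0.70 log2 units (standard error 0.39). Its neighbor Hspa1b, a near-identical copy whose reads cannot be assigned with certainty, had 0.72 (standard error 0.50). 7aaRAE sample 2 was the highest for both copies, and naïve mice were higher still, at means of 11.9 and 18.3 RPKM.

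A heat shock element, searched on both strands as GAA, any 2 bases, TTC, any 2 bases and GAA, was in the windows of Hsph1, Hspe1, Hspd1 and Chordc1. These were 4 of the 14 genes of the list with a window (28.6%), against 179 of 27025 genes (0.662%). The list holds known heat shock genes, so this share says nothing about the peptide. Hspe1 and Hspd1 encode the mitochondrial cochaperonin and chaperonin and start on either side of 1 shared region, of which chr1:55088008-55088127 is printed along the plus strand, the strand of Hspe1, with overlapping matches in capitals.
Hspe1: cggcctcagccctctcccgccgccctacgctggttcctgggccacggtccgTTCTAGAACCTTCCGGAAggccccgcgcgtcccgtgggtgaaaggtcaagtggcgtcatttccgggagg
Hspd1 was at 36.7, 33.7 and 34.5 RPKM with vehicle and 42.1, 42.4 and 38.1 RPKM with 7aaRAE, a difference of 0.22 log2 units (standard error 0.11) without overlap. Hspe1 was at 37.6, 35.8 and 32.01 and 41.9, 34.9 and 40.6 RPKM, a difference of 0.15 log2 units, and overlapped through the second 7aaRAE sample.

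Genes of the endoplasmic reticulum stress response, a separate chaperone system, lay nearer to 0. Of 16 genes 14 were above 0, with a median of 0.11. On the higher side 1 had an unadjusted p-value under 0.05 (background 3.32%) and 3 did not overlap, Hspa5, Hsp90b1 and Sdf2l1 (background 6.12%). Sdf2l1 was at 87.4, 93.6 and 85.5 RPKM with vehicle and 115, 94.9 and 102 RPKM with 7aaRAE, a difference of 0.22 log2 units (standard error 0.08). The margin between its groups was narrow, and Hyou1, at 0.19, overlapped. Ddit3 and Xbp1, transcription factors of this response, had fold changes of 0.12 and -0.03.

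Receptors that 7aaRGD is designed to occupy did not separate the groups. Of 9 subunits of RGD-binding integrins 5 reached the level filter, with a median log2 fold change of 0.11 (0.0136 without vehicle sample 2), none at an unadjusted p-value under 0.05 and none without overlap. Itgav, the αv subunit on chromosome 2 from 83724397 to 83806916, was at 12.6, 10.8 and 12.3 RPKM with vehicle and 10.6, 12.7 and 12.2 RPKM with 7aaRAE, a difference of -0.01 log2 units with a 95% confidence interval from -0.20 to 0.17. Itgb1, the β1 subunit, was at 101, 97.8 and 100.2 and 101, 104 and 103 RPKM, a difference of 0.04 log2 units (-0.09 to 0.18). These were the narrowest intervals of the list, and the others were wider: Itgb3 had 0.11 (-0.29 to 0.51), Itgb5 0.14 (-0.10 to 0.38) and Itga5, the fibronectin receptor subunit, 0.20 (-0.13 to 0.53). The sign for Itgav and Itgb3 changed with single samples left out, and without vehicle sample 2 the values were 0.09 for Itga5 and 0.0136 for Itgb5. Itgb6, Itgb8, Itga8 and Itga2b were at most 0.372 RPKM in each vehicle and 7aaRAE sample.

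Of the leukocyte integrin subunits, 8 of 10 were tested with a median of 0.11 (-0.0203 without vehicle sample 2), 5 above 0, and none had an unadjusted p-value under 0.05. Itgal, the LFA-1 subunit that binds ICAM-1, was at 70.9, 75.7 and 98.96 RPKM with vehicle and 105, 111 and 94.8 RPKM with 7aaRAE, a difference of 0.35 log2 units (standard error 0.15). Itga4, the VLA-4 subunit, was at 16.1, 15.7 and 19.9 and 20.9, 21.6 and 19.7 RPKM, a difference of 0.26 log2 units. For both, vehicle sample 3 reached into the 7aaRAE range and the other vehicle samples were lower. Without vehicle sample 3 the fold changes were 0.489 for Itgal and 0.358 for Itga4. Itga9 had -0.19 and Itgb2, the partner of CD11b, -0.02.

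Ligands of the RGD type were tested in 5 of 12 cases, with a median of -0.27 and 1 above 0. The median was -0.097 without 7aaRAE sample 1 and -0.375 without vehicle sample 3. Spp1 (osteopontin), on chromosome 5 from 104435118 to 104441050, was at 142, 65.4 and 77.2 RPKM with vehicle, 90.4, 172 and 105 RPKM with 7aaRAE and 172, 194 and 213 RPKM with 7aaRGD, so that vehicle and 7aaRAE overlapped, at a difference of 0.39 log2 units (standard error 0.29), which was 0.12 without 7aaRAE sample 2 and 0.72 without vehicle sample 1. Thbs1 (thrombospondin-1) was at 210.0, 111 and 138 RPKM with vehicle and 127, 114 and 112 RPKM with 7aaRAE, a difference of -0.33 log2 units that was -0.07 without vehicle sample 1. Fn1 (fibronectin), Mfge8 (lactadherin) and Tgfbi had fold changes of -0.27, -0.34 and -0.12. Ibsp was at 0 RPKM in each of these samples, and Vtn, Edil3, Tnc and Nid1 were at most 0.218 RPKM.

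Downstream of integrins, 18 of 21 focal adhesion genes were tested, with a median of 0.05. The groups of 3 did not overlap, Lims1 on the higher side and Fyn and Fermt3 on the lower, against 12.6% of all genes. Lims1 (PINCH-1, an adaptor of integrin-linked kinase) was at 28.9, 26.7 and 31.3 RPKM with vehicle and 34.5, 32.6 and 31.8 RPKM with 7aaRAE, a difference of 0.18 log2 units (standard error 0.07). Fyn, a Src family kinase, was at 19.2, 17.99 and 18.6 and 14.95, 17.2 and 15.5 RPKM, a difference of -0.22 log2 units (standard error 0.08). Fermt3 (kindlin-3), which activates leukocyte integrins, was at 74.2, 74.8 and 66.5 and 65.5, 62.3 and 63.5 RPKM, a difference of -0.17 log2 units. The margins between the groups were narrow, and Ptk2, the focal adhesion kinase itself, was below the filter.

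In sorted bulk RNA, fewer cells of a type cannot be told apart from less RNA per cell. Homeostatic microglia genes were measured in full, 20 of 20, of which 18 were above 0 with a median of 0.19. The median was 0.0536 without vehicle sample 2 and 0.293 without vehicle sample 3. Their summed level was 3466, 2596 and 3381 RPKM with vehicle and 3579, 3116 and 3793 RPKM with 7aaRAE, against 23850 to 24730 RPKM in naïve mice, so that vehicle sample 2 was the low one and the groups overlapped. Tmem119 was at 246, 155 and 255 RPKM with vehicle and 272, 184 and 277 RPKM with 7aaRAE, a difference of 0.17 log2 units (standard error 0.22) that was -0.06 without vehicle sample 2. Cx3cr1, the fractalkine receptor, had 0.28 (standard error 0.18), or 0.08 without vehicle sample 2. Fcrls had the largest fold change of the list, at 106, 48.4 and 86.6 RPKM with vehicle and 104, 120.3 and 124 RPKM with 7aaRAE, or 0.59 (standard error 0.24), and 0.27 without vehicle sample 2. On the higher side 2 genes had an unadjusted p-value under 0.05 (background 3.32%), and 1 of 20 was without overlap (background 6.12%). This was Tgfbr1, a receptor for the cytokine that maintains microglia. It was at 70.5, 59.9 and 82.3 and 84.2, 92.3 and 82.9 RPKM, a difference of 0.29 log2 units, or 0.18 without vehicle sample 2.

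Border-associated macrophage genes were on the lower side, 6 of 8 tested below 0 with a median of -0.50. Their summed level was 301.8, 196.1 and 158.4 RPKM with vehicle and 151.5, 120 and 170.1 RPKM with 7aaRAE. Mrc1, described above with the alternative activation genes, is also a member, with the lowest fold change of the list at -1.54. Its levels are part of these sums, so the list is not separate from the Mrc1 values. Of the defining markers, Lyve1 and Cd163 were at most 0.796 RPKM in each of these samples. Pf4 was at 25.9, 6.802 and 7.79 RPKM with vehicle and 5.24, 7.66 and 7.51 RPKM with 7aaRAE, and its fold change of -0.67 was -0.10 without vehicle sample 1. The median of the list was -0.146 without that sample.

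Neutrophil genes showed the same order of vehicle samples. Of 11 tested 10 were below 0, with a median of -0.54. This median was -0.799 when vehicle sample 3 was left out and -0.212 when vehicle sample 1 was. On the lower side 3 genes had an unadjusted p-value under 0.05 (background 3.04%), while none was without overlap (background 6.49%). The summed level of the list was 284, 187.2 and 139.3 RPKM with vehicle and 147.3, 127.9 and 193.6 RPKM with 7aaRAE. S100a9, a calprotectin subunit, was at 94.7, 41.1 and 30.6 RPKM with vehicle and 32.8, 27.7 and 41.9 RPKM with 7aaRAE, with a fold change of -0.54 that was -0.07 without vehicle sample 1, and Ngp, a granule protein, at 12.9, 11.2 and 6.603 and 4.08, 5.04 and 9.01 RPKM. Ly6g, the defining surface marker, was at most 0.138 RPKM in these samples. Vehicle sample 1 was the highest of the 6 in the neutrophil, border-associated macrophage, Emp1, Ecm1 and Ccl6 values, and vehicle sample 3 the lowest of its group in the first 2 and in Ccl6. The part of these cell types in the lower values of Emp1, Ecm1, Ccl6, Chil3, Arg1 and Mrc1 was not tested. Mrc1 is itself on the border-associated macrophage list.

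Endothelial genes were mostly near the filter, with 4 of 12 tested. Pecam1 (CD31), which myeloid cells also carry, was at 16.5, 19.1 and 8.799 RPKM with vehicle and 6.87, 8.601 and 9.05 RPKM with 7aaRAE, a difference of -0.73 log2 units (95% confidence interval -1.25 to -0.20, adjusted p = 0.718). Vehicle sample 3 was inside the 7aaRAE range, and without it the value was -1.04. Anpep (aminopeptidase N) was at 143, 185 and 111 and 93.6, 130.2 and 116 RPKM, a difference of -0.35 log2 units with overlapping groups, which was -0.17 without vehicle sample 2 and -0.53 without vehicle sample 3. Genes of natural killer and cytotoxic cells, 8 tested, were all above 0 with a median of 0.13 and none at an unadjusted p-value under 0.05, and the median was -0.118 without vehicle sample 1. Gzmb was at 3.04, 8.85 and 6.77 RPKM with vehicle and 3.16, 9.19 and 8.37 RPKM with 7aaRAE, the first sample of each group being the low one.

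**Figure D4:**
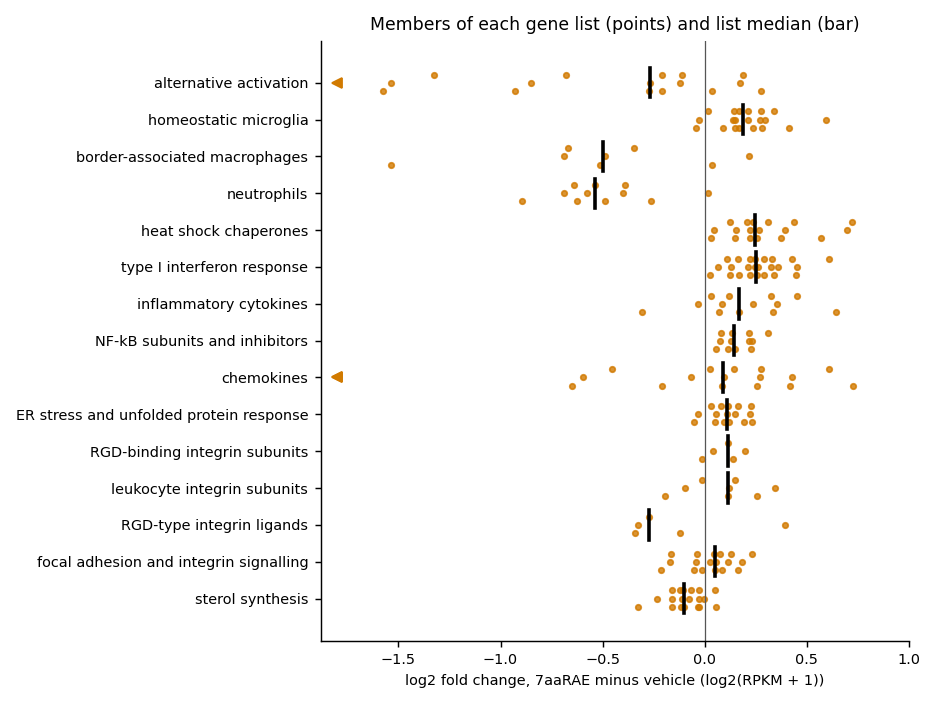
Log2 fold changes of 7aaRAE over vehicle for the tested members of 15 gene lists, each point 1 gene, with a black bar at the median of the list and a triangle at the left edge for members beyond the axis (Ccl24 at -2.82 and Ccl8 at -3.45). The members of the interferon, heat shock and NF-κB lists lie above 0 without exception, those of the neutrophil and alternative activation lists mostly below, and integrin and focal adhesion genes on either side of 0.

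Lists of housekeeping and metabolic genes were read on a scale that sets each library to its own total. The 41 cytosolic ribosomal protein genes had a median of -0.00393 (-0.0577 to 0.0402 with a sample left out) with 18 above 0, and the 31 nuclear oxidative phosphorylation genes a median of -0.05 with 25 below 0. Enzymes and regulators of sterol synthesis were below 0 in 17 of 19 genes with a median of -0.10 (-0.0356 without vehicle sample 2 and -0.175 without vehicle sample 3). On this side 2 had an unadjusted p-value under 0.05 (background 3.04%). Nsdhl was at 5.99, 6.45 and 6.32 RPKM with vehicle and 5.05, 4.74 and 5.76 RPKM with 7aaRAE, a difference of -0.23 log2 units (standard error 0.07). MHC class II genes were below 0 in 10 of 12 with a median of -0.07 (-0.138 without vehicle sample 1) and none at an unadjusted p-value under 0.05. Genes that respond to glucocorticoids had a median of -0.27 with 8 of 11 below 0, and this median was -0.0596 without 7aaRAE sample 3 and -0.40 without 7aaRAE sample 2. Among them Fkbp5 was at 16.98, 8.303 and 4.58 RPKM with vehicle and 6.15, 6.18 and 3.76 RPKM with 7aaRAE, with vehicle sample 1 far above the rest. Under TMM and median-of-ratios factors the number of members above 0 was the same for each list described here, except for 14 and 15 ribosomal genes above 0 and 4 oxidative phosphorylation genes.

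The direct comparison with the active peptide asks which of these levels depend on the motif, since 7aaRGD and 7aaRAE were given at the same 2 mg/ml for the same 21 days. It was the 1 matched pair of peptides compared. No gene passed the adjusted threshold, 0 of 9440 (0%), and the smallest adjusted p was 0.147. At an unadjusted p-value under 0.05 there were 520 genes (5.51%), 412 (4.36%) higher with 7aaRGD and 108 (1.14%) higher with 7aaRAE. Of all genes 58.2% were above 0 in favor of 7aaRGD, a split that was 47.8% with TMM and 47.7% with median-of-ratios factors, so no direction can be read from it. A p-value that misses the threshold does not show that the peptides act alike, and the intervals below give the differences that remain possible.

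As 7aaRGD minus 7aaRAE on the log2 scale, Il1b differed by -0.05 (95% confidence interval -0.38 to 0.29), Cxcl10 by 0.02 (95% confidence interval -0.50 to 0.55) and Nfkb2 by -0.02 (95% confidence interval -0.18 to 0.15). For the alternative activation genes the intervals were wide, with -0.01 (95% confidence interval -1.15 to 1.13) for Chil3, 0.04 (95% confidence interval -1.45 to 1.53) for Mrc1 and -0.83 (95% confidence interval -2.09 to 0.44) for Arg1, and for Chil3 and Mrc1 they reached beyond 1 log2 unit on both sides. The 7aaRGD samples of Arg1 were at 95.6, 122 and 201 RPKM, all below the lowest 7aaRAE sample, the third by a small margin. Itgav and Itgb1 differed by 0.04 (95% confidence interval -0.14 to 0.23) and -0.08 (95% confidence interval -0.21 to 0.05).

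The peptides stood apart for another set of genes, each without passing the adjusted threshold. Spp1 was higher with 7aaRGD by 0.70 (95% confidence interval 0.04 to 1.36, adjusted p = 0.883), and its 7aaRGD samples reached from the highest 7aaRAE sample upward. Thbs1 was higher by 0.69 (95% confidence interval 0.23 to 1.14, adjusted p = 0.778), with 7aaRGD samples at 161, 198 and 216 RPKM, all above those of 7aaRAE. Emp1 was higher by 0.74 (95% confidence interval 0.15 to 1.34, adjusted p = 0.778), with 7aaRGD samples at 7.195, 7.98 and 10.2 RPKM. In these genes 7aaRAE had the lower level of the peptides. Cxcl13 went the other way, at -0.64 (95% confidence interval -0.95 to -0.33, adjusted p = 0.422), and so did Anpep, at -0.44 (95% confidence interval -0.84 to -0.04, adjusted p = 0.859). Among microglia genes Fcrls differed by 0.59 (95% confidence interval 0.06 to 1.12, adjusted p = 0.859), Cx3cr1 by 0.24 (95% confidence interval -0.16 to 0.65) and Tmem119 by 0.27 (95% confidence interval -0.22 to 0.75).

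Sterol synthesis genes were higher with 7aaRGD than with 7aaRAE in 19 of 19 cases, also under TMM and median-of-ratios factors, with a median difference of 0.20, or 0.186 under either set of factors. Of these 9 had an unadjusted p-value under 0.05, where 4.36% of all genes did in this direction, and none passed the adjusted threshold. Sqle, squalene epoxidase, was at 3.56, 4.02 and 2.54 RPKM with vehicle, 3.45, 2.87 and 2.66 RPKM with 7aaRAE and 4.05, 5.47 and 4.54 RPKM with 7aaRGD, a difference of 0.51 (95% confidence interval 0.20 to 0.82, adjusted p = 0.778). Its vehicle samples overlapped those of 7aaRAE and were below every 7aaRGD sample. Heat shock genes were above 7aaRAE with 7aaRGD in 17 of 18 cases with a median of 0.19, and interferon-γ-induced GTPases below it in 15 of 15 with a median of -0.16. In these directions 3 heat shock genes and 0 GTPases had an unadjusted p-value under 0.05 (limma). Summed levels of all 3 lists overlapped between the peptides. With 7aaRAE and 7aaRGD they were 1519, 1359 and 1387 and 1567, 1911 and 1304 RPKM for heat shock genes. For GTPases they were 1394, 1366 and 1188 and 1360, 1348 and 898.5 RPKM, and for sterol genes 169.8, 140.3 and 145.8 and 167.3, 194.3 and 175.9 RPKM.

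**Figure D5:**
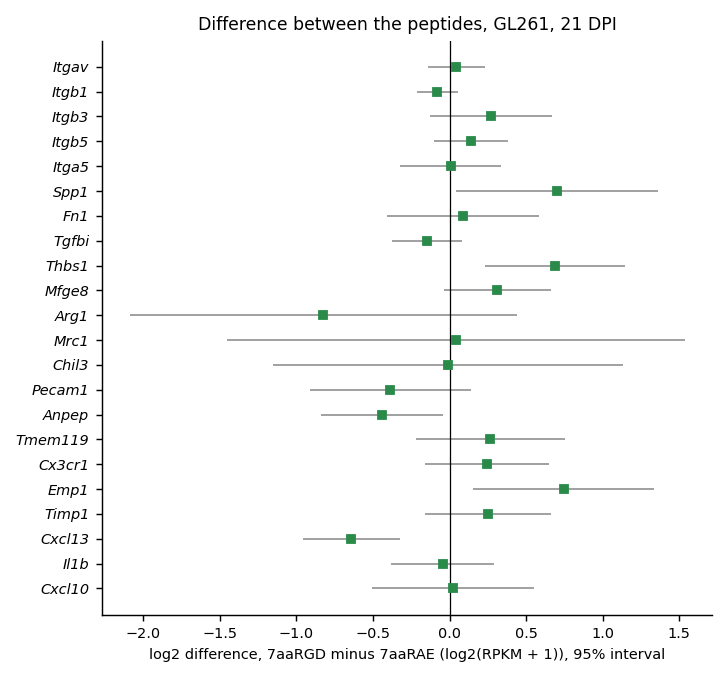
Difference between 7aaRGD and 7aaRAE in log2(RPKM + 1) for genes named in the text, with bars for the 95% confidence interval of each gene alone and a line at 0. The intervals of Emp1, Thbs1 and Spp1 lie above 0, those of Cxcl13 and Anpep below, and those of Il1b, Cxcl10, Chil3, Mrc1 and Itgav include 0.

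The series holds 1 more matched experiment with the control peptide, gliomas of U87-MG, a human glioma line, in athymic nude mice, which lack mature T cells, at 21 DPI, with 3 vehicle and 3 7aaRAE samples. The tables were normalized separately, so fold changes are set side by side and their difference was not tested. In U87-MG gliomas 1 of 9664 genes (0.0103%) passed the adjusted threshold, Il15ra, the receptor chain that presents interleukin-15. Its mean was 1.78 RPKM with vehicle and 5.96 RPKM with 7aaRAE, a difference of 1.32 log2 units (standard error 0.10, limma adjusted p = 0.00332), against 0.24 in GL261 gliomas. At an unadjusted p-value under 0.05 there were 746 genes (7.72%), of which 331 (3.43%) were higher with 7aaRAE, the groups of 1590 (16.5%) did not overlap, and 49.1% of genes were above 0.

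Of 8954 genes tested in both models, 4458 (49.8%) had the same sign, and of the 281 of the naming rule's genes that were tested in both, 106 (37.7%) did. The lists that stood above 0 in GL261 gliomas did not do so in U87-MG gliomas. There the median was -0.17 for type I interferon genes with 8 of 24 above 0, 0.00317 for heat shock genes with 10 of 20, -0.05 for NF-κB genes with 4 of 12 and -0.29 for homeostatic microglia genes with 1 of 20. Glucocorticoid-responsive genes went the other way, with a median of 1.21 and 11 of 12 above 0 (background 49.1%). Of these 10 had an unadjusted p-value under 0.05 (background 3.43% on the higher side). The median in GL261 gliomas was -0.27, or -0.0596 without 7aaRAE sample 3. Fkbp5, which binds the glucocorticoid receptor complex, had a log2 fold change of 2.01 in U87-MG gliomas and -0.64 in GL261 gliomas, and Tsc22d3 (GILZ) had 1.18 and -0.46. None of these passed the adjusted threshold in either model.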

How the data were processed

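CD11b+ cells sorted from gliomas were profiled by RNA-seq. Per the study's methods and the submitters' processing notes, reads were trimmed with Trimmomatic, aligned to mm10 with STAR, marked for duplicates with Picard and counted per gene with HTSeq 0.11.1 with regard to strand. The values the authors deposited were RPKM to which 2 had been added throughout. This unit was read from the values, since the normalization that the authors used is not given in the sources used here. This 2 was subtracted, and the 3.13% to 6.97% of values per sample below it (lowest -0.402) were set to 0. Of 54513 table entries 98.8% were matched to a gene, 21893 of them protein-coding. No column of per-sample values in the tables used was left unassigned. The U87-MG table gives all 3 columns of a group the same name, so these columns were assigned to groups only. A table of other treatments at a later day was not used here.

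Log2(RPKM + 1) values of the 3 tumor-bearing groups were fitted together with limma 3.58.1 in R 4.3.3 (moderated variances with trend, two-sided, Benjamini-Hochberg adjustment), for protein-coding genes that averaged 1 RPKM or more over the 9 samples. Replicates were pools of animals. NOISeq, the test of the study, was not run, and a noise test after its principle (probability over 0.8) was an alternative. Other alternatives were pseudocounts of 0.1 and 5, no filter or a mean of 5 RPKM, TMM and median-of-ratios factors and all gene types. Further ones were only the compared groups, naïve samples added, a replicate block, 1 residual degree of freedom less and an adjusted p-value of 0.1. Each sample of the compared groups was also left out in turn. Scripts were tested on simulated data.

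Named genes were the 12 largest differences on each side among genes with an unadjusted p-value under 0.05, groups that did not overlap and a mean of at least 5 RPKM. To these were added, for each of the 39 lists where it is described, up to 4 members with the smallest p-values and the defining genes, then the integrin subunits and RGD-type ligands, and Arg1, Mrc1, Chil3, Pecam1, Anpep, Spp1, Tmem119 and Cx3cr1. Any other gene was picked after its values were seen. The samples, lists and rules were chosen with earlier results of these data known. Promoters came from RefSeq (GRCm38.p6, 32851 windows). Values of some single list members are not reported here.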

Additional observations from a re-analysis of the deposited data

Results flagged for a closer look

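For 9 of the named genes the 7aaRAE and vehicle samples did not overlap in either glioma model, but the sign of the difference was opposite. The models were normalized in separate tables, so the difference between them was not tested, and 12.6% of genes in GL261 and 16.5% in U87-MG gliomas had groups without overlap. Many named genes were picked for groups without overlap in GL261 gliomas. Named genes with the same sign in both models, and the share of all genes without overlap in both, are not reported here. The number 9 therefore has no background to be read against. Lower with 7aaRAE in U87-MG gliomas and higher in GL261 gliomas were Il1b, at -0.482 log2 units in U87-MG, and the NF-κB genes Nfkb2 at -0.282, Nfkb1 at -0.224 and Nfkbie, an inhibitor of the family, at -0.492. The same held for Sdf2l1, of the endoplasmic reticulum stress list, at -0.43, and for Lims1, the focal adhesion adaptor, at -0.33. The reverse, higher with 7aaRAE in U87-MG and lower in GL261 gliomas, was seen for Ccl6 at 0.436, Cirbp at 0.662 and Tmem37 at 0.279. None of the 9 passed the adjusted threshold of limma in either model.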

How the results depend on the processing

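Between 7aaRAE and vehicle in GL261 gliomas 0 genes passed under every limma alternative, including each vehicle or 7aaRAE sample left out. At an unadjusted p-value under 0.05 there were 360 to 1094 genes, and smallest adjusted p-values were from 0.0859 to 0.935. The 360 were of 5889 genes tested at a mean of at least 5 RPKM, and the 1094 of 16736 tested without a filter. The noise test called 195 (89 higher, 106 lower). Between 7aaRGD and 7aaRAE the count was 7 without a filter, 1 with all gene types, 6 with only the compared groups, 105 by the noise test, 0 to 1 with a sample left out (1 without 7aaRAE sample 3), and 0 otherwise. In U87-MG gliomas the 1 called gene became 6 at an adjusted p-value under 0.1 and 0 at a mean of at least 5 RPKM. The count was 32 with only the compared groups, 300 by the noise test and 1 with any vehicle or 7aaRAE column left out. The cause of these moves was not tested. A replicate block gave 0 calls in both GL261 comparisons, with 411 and 418 genes at an unadjusted p-value under 0.05. Only 1 of 9 pairs of same-numbered samples had deviations correlated above 0.1. Other pairs had negative correlations, the lowest -0.775 between vehicle and 7aaRGD sample 1. As the residuals also miss a dimension, these correlations cannot show whether the numbers pair the samples. For U87-MG gliomas no paired analysis was possible, because all 3 columns of a group carry the same number.

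Of the alternative values of named genes, 1131 kept their sign, and of those of list medians, 461 moved by less than the replicate spread and 7 by more. With a sample left out, 9 values of 5 named genes changed sign, and so did the medians of 17 of the 39 lists. The ranges of the genes were -0.0618 to 0.358 for Tmem119, -0.152 to 0.342 for Ccl2, -0.0718 to 0.264 for Itgb3, -0.0725 to 0.0587 for Itgav and -0.116 to 0.28 for Itgax, and the cause was not tested. Read depth is unknown, so its limit on low genes cannot be given.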
